A study of Homo sapiens with 16 samples.

Results

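The telomere genes of the BJ model are described here as TERT, the reverse transcriptase of telomerase, the 6 shelterin subunits TERF1, TERF2, TERF2IP, POT1, TINF2 and ACD, and the accessory genes DKC1 and RTEL1. The 9 genes were chosen by name, with earlier results of these data known. They are 9 of 19356 protein-coding genes to which transcripts of the deposited table could be assigned. BJ is an established line of human fibroblasts, and its 4 stages were primary BJ cells, immortalized cells carrying hTERT, transformed cells carrying hTERT and SV40 Large-T, and metastasizing cells carrying hTERT, SV40 Large-T and Ras-G12V. Every stage after the primary stage therefore carries the introduced TERT, so TERT in those stages is a transgene read together with the gene on chromosome 5. Each stage was kept for 6 passages at atmospheric oxygen or at 3% oxygen, which is termed hypoxia here, and duplicate plates gave 8 groups of 2 libraries and 16 libraries in all. Duplicate plates of the same line share their history, so every p-value below measures the spread between plates and not between independently derived lines. Values are TPM, the share of the transcripts in a library, already divided by transcript length and summed over the transcripts of a gene. TPM keep no read counts, so the depth behind each value is unknown.

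Telomeres are the repeat tracts that cap chromosome ends, and they shorten as somatic cells divide unless telomerase adds repeats back. Telomerase joins the catalytic protein TERT to the RNA template TERC, and dyskerin, the product of DKC1, binds that RNA and stabilizes it. Shelterin coats the repeats: TERF1 and TERF2 bind double-stranded repeats, POT1 binds the single-stranded overhang, ACD (TPP1) holds POT1 and recruits telomerase, TINF2 (TIN2) bridges the parts, and TERF2IP (RAP1) rides on TERF2. RTEL1 is a helicase that unwinds telomeric loops and G-quadruplexes during replication. Human fibroblasts normally keep TERT silent while they express the shelterin genes, which is why TERT is introduced to immortalize them. TERC is named for completeness and was not analysed here, since none of its transcripts could be assigned.

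The labels were checked against the genes they imply before any comparison. TERT was at or near 0 in the 4 primary libraries and at 31.6 to 193 TPM (lowest and highest of 12 libraries) in those of the later stages. HRAS is the gene whose mutant form is introduced in the metastasizing stage. In the libraries labelled metastasizing it was at 94.6 and 78.1 TPM at atmospheric oxygen and at 143 and 772 TPM at 3% oxygen. The atmospheric pair lay below the 120 and 99.0 TPM of the transformed libraries at that oxygen level. That pair does not match the label by level, so the last stage is called by its label below. TPM do not tell the mutant from the normal allele. The study authenticated its cells from variants in the RNA reads and reported the mutations specific to each stage. It also reported that mutant HRAS rose at low oxygen. Summed TPM of 8 fibroblast markers ranged from 4523 to 22860 over the libraries, those of 4 epithelial markers from 0.0564 to 3.61, those of 2 endothelial markers from 0.0373 to 0.547 and those of 3 leukocyte markers from 0.965 to 3.73, with CD3E at 0 throughout. Between the 2 libraries of a group, 1.83% to 4.08% of genes of at least 1 TPM differed more than 2-fold in 7 groups and 10.99% in the group labelled metastasizing at 3% oxygen, which stands apart for that reason.

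The annotated sequences that separate the isoforms of TERT are given first, and no reads over these junctions were examined. The full-length transcript TERT-201 has 16 exons and 4039 bases, of which 3396 are coding, and 4 further transcripts of the gene were listed (chromosome 5, 1253262 to 1295183, minus strand, GRCh37). TERT-203 lacks the first 36 bases of exon 6 and, like TERT-204, exons 7 and 8 together (182 bases), changes within the part of the protein that carries out reverse transcription. TERT-202, TERT-203 and TERT-204 also lack exon 11 (189 bases), and TERT-205 is a short retained-intron transcript of 406 bases over exons 10 and 11. The windows below hold the last 30 bases of the exon before each junction in lower case and the first 30 bases of the exon after it in capitals, 5′ to 3′ on the coding strand, as annotated in GENCODE 44.
TERT-201, TERT-202 and TERT-204, exon 5 to 6: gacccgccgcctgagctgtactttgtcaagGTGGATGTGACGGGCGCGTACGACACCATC
TERT-203, exon 5 to shortened exon 6: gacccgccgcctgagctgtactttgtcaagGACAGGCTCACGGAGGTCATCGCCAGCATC
TERT-201 and TERT-202, exon 6 to 7: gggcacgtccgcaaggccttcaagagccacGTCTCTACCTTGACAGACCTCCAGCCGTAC
TERT-203 and TERT-204, exon 6 to 9: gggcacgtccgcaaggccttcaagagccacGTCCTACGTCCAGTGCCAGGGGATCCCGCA
TERT-201 and TERT-205, exon 10 to 11: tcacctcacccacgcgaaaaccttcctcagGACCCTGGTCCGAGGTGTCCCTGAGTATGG
TERT-202, TERT-203 and TERT-204, exon 10 to 12: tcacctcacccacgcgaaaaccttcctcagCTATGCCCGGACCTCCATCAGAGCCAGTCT
In each pair the lower-case letters are the same in both windows and the capitals differ, and each window is headed by every listed TERT transcript that holds it, so none of the 3 upper windows of the pairs is held by TERT-201 alone. The junctions lie between 1279406 and 1278911 for exons 5 and 6 of TERT-201, between 1278756 and 1272395 for exons 6 and 7, and between 1266579 and 1264707 for exons 10 and 11, all within coding exons.

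TERT signal was assigned almost wholly to the full-length transcript, a share that the form of the introduced sequence would itself set. TERT-201 held 99.9% of the TERT TPM over the 16 libraries, and it was listed at 0 in all 4 primary libraries. TERT-202, the form that lacks exon 11 alone, was at 0 in every library. TERT-203 was at 0.0586 TPM in immortalized replicate a and at 0.108 TPM in transformed replicate b, both at atmospheric oxygen, and TERT-204 at 0.240 TPM in immortalized replicate b at atmospheric oxygen. The small TERT signal of primary cells came from other transcripts, TERT-204 at 0.0370 TPM in replicate a and TERT-205 at 0.543 TPM in replicate b at 3% oxygen, and both primary libraries at atmospheric oxygen were at 0 for every TERT transcript. An exact 0 in a table without counts can be a failed estimate, so TERT is described only as listed at 0 there and no fold is given against the primary stage. TERT-201 is 84.1% coding, and an introduced coding sequence that lacks the ends of the transcript would be divided by the full annotated length all the same, so levels of TERT are comparable between the libraries that carry it more firmly than with other genes.

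TERT was highest in immortalized cells and lower both in transformed cells and in the libraries labelled metastasizing. In immortalized cells it was at 115 and 193 TPM at atmospheric oxygen and at 143 and 128 TPM at 3% oxygen. These 4 libraries lay above all others, and the oxygen levels overlapped. In transformed cells it was at 35.4 and 31.6 TPM at atmospheric oxygen and at 75.1 and 78.0 TPM at 3% oxygen, so the hypoxic libraries were the higher pair without overlap. In the libraries labelled metastasizing it was at 68.2 and 56.9 TPM at atmospheric oxygen and at 31.7 and 68.1 TPM at 3% oxygen, and the latter pair spanned the former. In order of mean level, immortalized cells at both oxygen levels overlapped, transformed cells at 3% oxygen (76.6 ± 2.05 TPM, SD, n = 2) stood apart from their neighbours, and the groups labelled metastasizing and the transformed group at atmospheric oxygen (33.5 ± 2.70 TPM) overlapped in sequence.

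**Figure D1:**
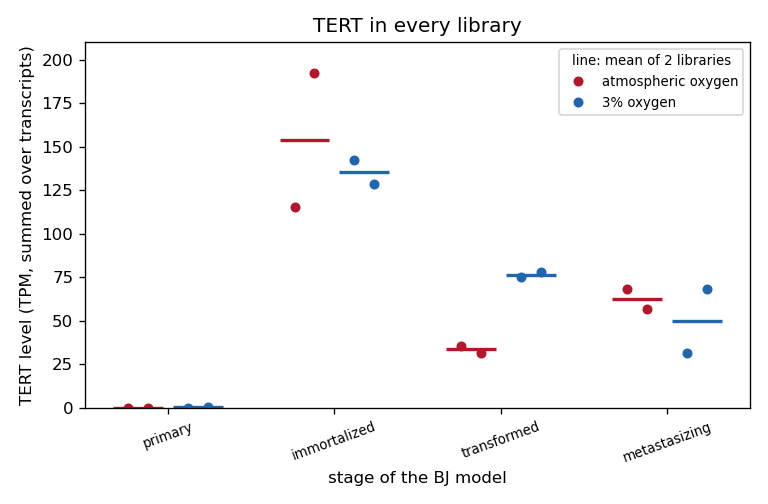
TERT level (TPM, y axis) in each library (points) of the 4 stages (x axis), at atmospheric oxygen (red) and 3% oxygen (blue), with the mean of 2 libraries as a line. The primary libraries sit at or near 0, the immortalized libraries between 115 and 193 TPM, and the transformed libraries at 3% oxygen (75.1 and 78.0 TPM) above those at atmospheric oxygen (35.4 and 31.6 TPM).

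Each change was tested with limma on log2(TPM + 0.5) in 1 fit of all 16 libraries, with p-values adjusted over all protein-coding genes tested, and a fold change is therefore on that scale. A gene is said to have changed, risen or fallen where its adjusted p was under 0.05, and is called where its adjusted p was under 0.01 and the change beyond 2-fold, the thresholds of the study. TERT was called higher in immortalized than in primary cells at atmospheric oxygen and at 3% oxygen. TERT is introduced at that step, so no p-value is given for an outcome that the design had set. From immortalized to transformed cells at atmospheric oxygen it fell 4.40-fold (log2 fold change -2.14 ± 0.36, SE, adjusted p = 0.000482), and with each of the 4 libraries left out in turn the adjusted p was at most 0.00668. The same step at 3% oxygen gave -0.82 ± 0.36 (adjusted p = 0.0899), which did not pass although the libraries did not overlap. TERT rose with hypoxia in transformed cells 2.27-fold (1.18 ± 0.36, adjusted p = 0.0281), but with any of the 4 libraries left out the change no longer passed (adjusted p = 0.0834 to 0.123), nor did it with a pseudocount of 0.1 TPM or with no filter on low values. Of 13 other settings that kept these 4 libraries, 11 passed. The log2 fold change was 1.17 to 1.21 over the 13, and at the lowest adjusted p in limma (0.00571) TERT was called. In immortalized cells the hypoxic difference was -0.14 ± 0.36 (adjusted p = 0.811) and in the libraries labelled metastasizing -0.42 ± 0.36 (adjusted p = 0.412). TERT was not tested for hypoxia in primary cells, where no group mean reached 1 TPM.

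Of the shelterin subunits, TERF1, TERF2 and ACD rose at the step to transformed cells at atmospheric oxygen, and TERF2IP, POT1 and TINF2 did not pass there. TERF1 (chromosome 8, 73921091 to 73960358, GRCh37) was at 25.1 and 23.4 TPM at atmospheric oxygen and 19.7 and 25.2 TPM at 3% oxygen in primary cells, and at 16.5 and 17.6 against 24.7 and 22.6 TPM in immortalized cells. It was at 30.2 and 29.9 against 22.0 and 20.6 TPM in transformed cells, and at 26.3 and 27.5 against 26.4 and 27.2 TPM in the libraries labelled metastasizing. TERF1 was thus lowest in immortalized and highest in transformed cells at atmospheric oxygen, and it lay between these at 3% oxygen. It fell from primary to immortalized cells at atmospheric oxygen (-0.50 ± 0.12, adjusted p = 0.00811) and rose from immortalized to transformed cells 1.74-fold (0.80 ± 0.12, adjusted p = 0.000202). Hypoxia raised TERF1 in immortalized cells (0.46 ± 0.12, adjusted p = 0.0172) and lowered it in transformed cells (-0.49 ± 0.12, adjusted p = 0.00983). The difference between these 2 hypoxic responses was -0.95 ± 0.17 (adjusted p = 0.00197), and it passed with each of the 8 libraries left out in turn (adjusted p at most 0.0117). The response in immortalized cells alone did not pass with any library left out (adjusted p up to 0.121) nor with libraries rescaled by the median ratio or by quantiles, and that in transformed cells passed without replicate a at 3% oxygen (adjusted p = 0.0266) and missed the threshold without each of the other 3 libraries (0.0504 to 0.0561). The fall from primary cells was lost without primary replicate a (adjusted p = 0.0555) or immortalized replicate a (0.0597).

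TERF2 (chromosome 16, 69389470 to 69442474, minus strand, GRCh37), which protects ends from being joined, varied more between replicate plates than TERF1. It was at 23.8 and 18.0 TPM at atmospheric oxygen and 23.2 and 28.9 TPM at 3% oxygen in primary cells, and at 20.2 and 15.6 against 20.3 and 33.5 TPM in immortalized cells. It was at 37.8 and 47.2 against 32.6 and 35.7 TPM in transformed cells, and at 21.6 and 36.6 against 48.3 and 33.1 TPM in the libraries labelled metastasizing. In order of mean level every group of TERF2 overlapped the next, from 42.5 ± 6.61 TPM (SD, n = 2) in transformed to 17.9 ± 3.24 TPM in immortalized cells at atmospheric oxygen. Only the step between those ends of the order passed, at 2.34-fold (1.22 ± 0.30, adjusted p = 0.00494), and it was called. It kept an adjusted p of at most 0.042 with each of the 4 libraries left out, which is past 0.05 and not past 0.01. Its leading transcript held 27.8% of TERF2 TPM, and 10 of 12 listed transcripts exceeded 1 TPM in some library.

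TERF2IP (chromosome 16, 75681671 to 75795770, GRCh37), the partner of TERF2, varied least as a ratio of highest to lowest, between 42.2 and 56.6 TPM over the 16 libraries, with 99.1% of it from 1 transcript. It fell with hypoxia in transformed cells from 55.2 and 56.1 TPM to 46.0 and 45.1 TPM (-0.29 ± 0.09, adjusted p = 0.0264). At atmospheric oxygen it was at 42.2 and 43.7 TPM in the libraries labelled metastasizing, lower than in transformed cells (-0.37 ± 0.09, adjusted p = 0.0137). At 3% oxygen it fell from 53.0 and 56.3 TPM in primary to 45.9 and 45.1 TPM in immortalized cells (-0.26 ± 0.09, adjusted p = 0.0439). Each of these 3 changes is under 1.3-fold, and none passed when any of its 4 libraries was left out (adjusted p up to 0.119, 0.0876 and 0.197).

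POT1 and ACD form the part of shelterin that sits on the single-stranded overhang, and their patterns differed. POT1 (chromosome 7, 124462440 to 124570037, minus strand, GRCh37) was at 15.3 and 17.6 TPM at atmospheric oxygen and 17.0 and 17.0 TPM at 3% oxygen in primary cells, and at 21.0 and 23.0 against 31.5 and 28.2 TPM in immortalized cells. It was at 26.9 and 24.7 against 25.4 and 20.2 TPM in transformed cells, and at 33.8 and 39.3 against 21.8 and 23.6 TPM in the libraries labelled metastasizing. All 12 libraries that carry hTERT lay above all 4 primary libraries. POT1 rose from primary to immortalized cells at 3% oxygen 1.73-fold (0.79 ± 0.14, adjusted p = 0.00145), which held with each library left out (adjusted p at most 0.0197). At atmospheric oxygen the same step was 0.41 ± 0.14 (adjusted p = 0.0358), and it passed without primary replicate b (adjusted p = 0.0493) and failed without each of the other 3 libraries (0.0743 to 0.194). Hypoxia raised POT1 in immortalized cells (0.43 ± 0.14, adjusted p = 0.040), a change lost with any library left out (adjusted p = 0.0818 to 0.212) and under either rescaling, and POT1 was 1.60-fold lower at 3% oxygen in the libraries labelled metastasizing (-0.67 ± 0.14, adjusted p = 0.00453). It also fell from immortalized to transformed cells at 3% oxygen (-0.39 ± 0.14, adjusted p = 0.0381) and rose from transformed cells to the libraries labelled metastasizing at atmospheric oxygen (0.49 ± 0.14, adjusted p = 0.0285). The former passed only without transformed replicate a at 3% oxygen (adjusted p = 0.0157, and up to 0.266 without the others), and the latter only without metastasizing replicate a at atmospheric oxygen (0.0442, and up to 0.19). POT1 has 17 listed transcripts and the leading POT1-201 held 25.6% of its TPM.

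ACD (chromosome 16, 67691415 to 67694713, minus strand, GRCh37) was lowest in immortalized and highest in later cells. It was at 19.6 and 24.0 TPM at atmospheric oxygen and 25.1 and 20.2 TPM at 3% oxygen in primary cells, and at 13.8 and 11.7 against 14.8 and 17.2 TPM in immortalized cells. It was at 37.4 and 31.0 against 22.4 and 26.1 TPM in transformed cells, and at 57.6 and 43.4 against 28.0 and 29.5 TPM in the libraries labelled metastasizing. The 4 immortalized libraries lay below all 12 others, and at atmospheric oxygen the order immortalized, primary, transformed, metastasizing had no overlap. ACD fell from primary to immortalized cells at atmospheric oxygen (-0.75 ± 0.18, adjusted p = 0.00743), which was lost without primary replicate b (adjusted p = 0.0676) or immortalized replicate b (0.0583). It then rose 2.62-fold to transformed cells (1.39 ± 0.18, adjusted p = 6.57e-05, at most 0.00131 with a library left out) and was called. At 3% oxygen this rise was 0.58 ± 0.18 (adjusted p = 0.0211), and it was lost without replicate a of immortalized (adjusted p = 0.129) or replicate b of transformed cells (0.125). In the libraries labelled metastasizing ACD was 1.73-fold lower at 3% oxygen (-0.79 ± 0.18, adjusted p = 0.00816), lost without replicate a at atmospheric oxygen (adjusted p = 0.0781). Most of the ACD signal, 64.8%, was assigned to ACD-209, a transcript annotated as a target of nonsense-mediated decay, so the summed level of ACD is not the level of its protein-coding transcripts alone. The coding transcript ACD-202 was between 0 and 10.4 TPM.

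TINF2 (chromosome 14, 24707492 to 24711869, minus strand, GRCh37), the bridge of shelterin, stayed between 34.4 and 45.1 TPM in 14 libraries and was at 24.8 and 31.9 TPM in those labelled metastasizing at 3% oxygen. It was lower there than at atmospheric oxygen, where it was at 43.4 and 39.1 TPM (-0.54 ± 0.12, adjusted p = 0.00872), and lower than in transformed cells at 3% oxygen, at 39.3 and 41.6 TPM (-0.51 ± 0.12, adjusted p = 0.0118). The first difference was lost without metastasizing replicate a at atmospheric oxygen (adjusted p = 0.0681), and the other without transformed replicate b (0.0647) or metastasizing replicate a (0.0517) at 3% oxygen. The hypoxic falls of POT1, ACD and TINF2 in the libraries labelled metastasizing all rest on the group whose plates differ most, and none passed when only the 4 libraries compared were fitted (adjusted p = 0.118, 0.101 and 0.189) or when libraries were weighted by their spread (0.0703, 0.132 and 0.0712). In that comparison 7 of 8 fibroblast markers also fell with hypoxia, beside 17.2% of all genes that fell. Of the 8 markers 4 were called lower, beside 565 of 12288 genes tested. The markers' median log2 fold change was -1.57, against -0.13 for all genes tested. The part of this in the members' values was not tested.

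The accessory genes DKC1 and RTEL1 also rose at the step to transformed cells at atmospheric oxygen. DKC1 (chromosome X, 153991017 to 154005964, GRCh37) was at 30.0 and 30.0 TPM at atmospheric oxygen and 40.4 and 37.8 TPM at 3% oxygen in primary cells, and at 23.5 and 24.2 against 40.8 and 38.0 TPM in immortalized cells. It was at 57.3 and 55.8 against 46.7 and 38.0 TPM in transformed cells, and at 52.9 and 58.6 against 111 and 52.7 TPM in the libraries labelled metastasizing. DKC1 was higher in both hypoxic plates than in both atmospheric plates of primary and immortalized cells and lower in both of transformed cells. None of these hypoxic differences passed, at 0.38 ± 0.25 (adjusted p = 0.294), 0.71 ± 0.25 (adjusted p = 0.0573) and -0.42 ± 0.25 (adjusted p = 0.216). Their SE is shared by all groups, among which the pair labelled metastasizing at 3% oxygen differed most in DKC1 (SD 41.2 TPM). In the groups compared here the SD was 0.0293 to 6.16 TPM. It rose 2.35-fold from immortalized to transformed cells at atmospheric oxygen (1.23 ± 0.25, adjusted p = 0.00158) and was called, with an adjusted p of at most 0.0124 when a library was left out. At 3% oxygen the same step was 0.10 ± 0.25 (adjusted p = 0.782). The rise from transformed cells to the libraries labelled metastasizing at 3% oxygen (0.85 ± 0.25, adjusted p = 0.0279) rests on replicate a of the latter: without it the log2 fold change was 0.32 (adjusted p = 0.0852) and without replicate b 1.39 (4.92e-05). It was also lost without transformed replicate b at 3% oxygen (0.151).

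RTEL1 (chromosome 20, 62289163 to 62327606, GRCh37) had the largest single change of the members that are not introduced. It was at 10.1 and 11.7 TPM at atmospheric oxygen and 17.5 and 15.4 TPM at 3% oxygen in primary cells, and at 6.14 and 7.74 against 8.64 and 12.3 TPM in immortalized cells. It was at 37.3 and 36.9 against 21.5 and 20.1 TPM in transformed cells, and at 14.1 and 11.4 against 14.4 and 28.0 TPM in the libraries labelled metastasizing. Both transformed plates at atmospheric oxygen lay above all other libraries. RTEL1 rose 5.08-fold from immortalized to transformed cells at atmospheric oxygen (2.35 ± 0.27, adjusted p = 2.59e-05, at most 0.000519 with a library left out) and fell 2.84-fold from there to the libraries labelled metastasizing (-1.51 ± 0.27, adjusted p = 0.00307), and both steps were called. With any library left out the fall stayed under an adjusted p of 0.05 but not under 0.01 (0.0132 to 0.0357). At 3% oxygen the rise to transformed cells was 1.97-fold (0.98 ± 0.27, adjusted p = 0.0118), lost without replicate a of immortalized (adjusted p = 0.103) or of transformed cells (0.054). Hypoxia lowered RTEL1 in transformed cells (-0.82 ± 0.27, adjusted p = 0.0349), a change lost with any of the 4 libraries left out (0.089 to 0.126). RTEL1 shares its exons with the readthrough gene RTEL1-TNFRSF6B, which was at 0.616 to 5.11 TPM, and the split of reads between them is uncertain, but RTEL1 changed in the same direction at each of these steps when the readthrough transcripts were added.

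**Figure D2:**
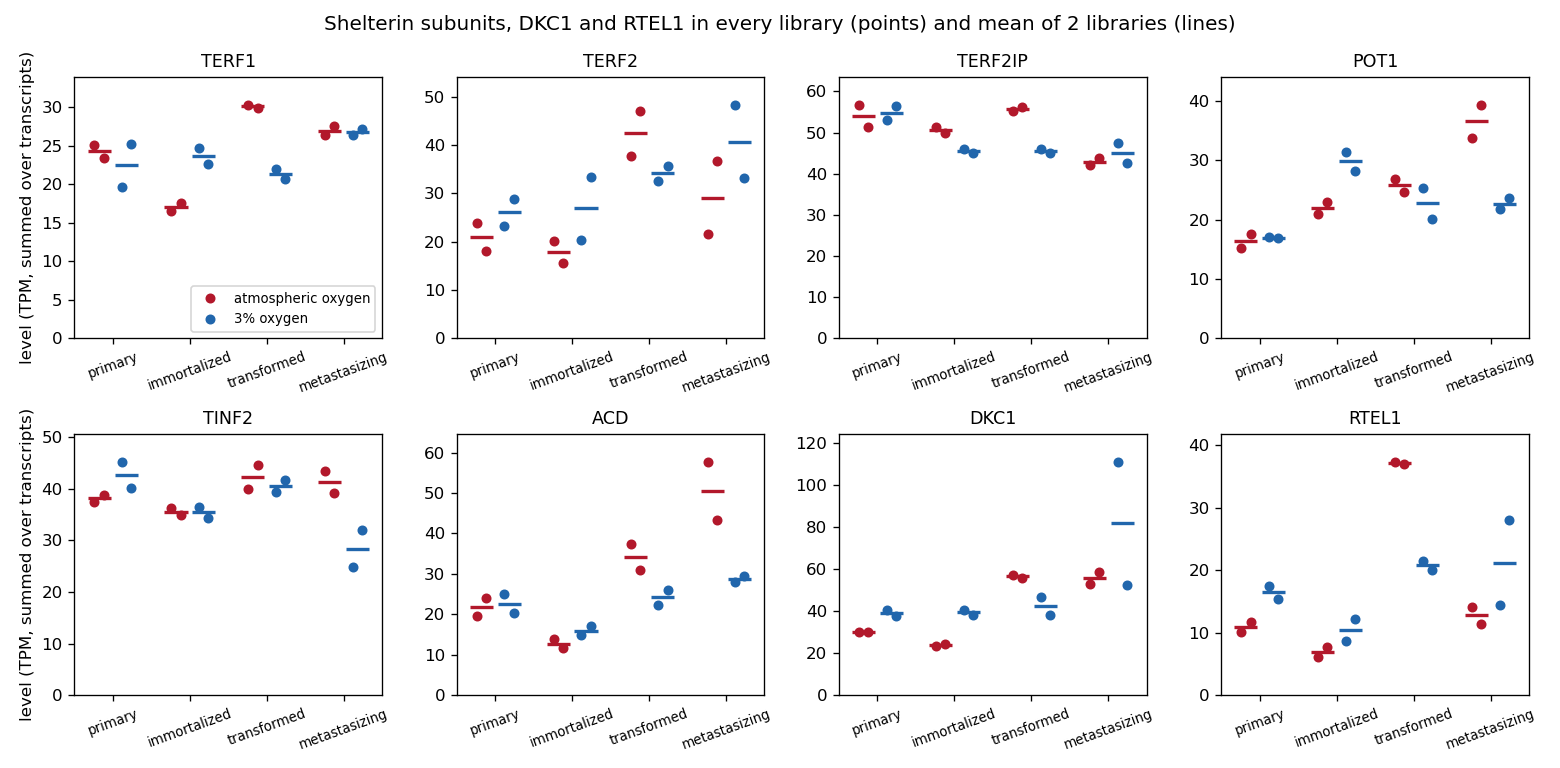
Levels (TPM, y axis) of the 8 members other than TERT in each library (points) of the 4 stages (x axis), at atmospheric oxygen (red) and 3% oxygen (blue), with the mean of 2 libraries as a line. RTEL1, at 37.3 and 36.9 TPM, and TERF1, at 30.2 and 29.9 TPM, are highest in transformed cells at atmospheric oxygen, ACD is lowest in immortalized cells, and DKC1 reaches 111 TPM in 1 library labelled metastasizing at 3% oxygen.

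Counted by comparison, hypoxia changed 0 to 4 members a stage and called none. In primary cells 0 of 8 members tested passed (0 also at an unadjusted p under 0.05), where 26.7% of all genes tested passed and 5.30% were called. In immortalized cells TERF1 and POT1 rose, 2 of 9 members, beside 26.6% of all genes passing and 4.91% called. In transformed cells TERT rose and TERF1, TERF2IP and RTEL1 fell, 4 of 9 members, beside 34.2% of all genes passing and 7.48% called. In the libraries labelled metastasizing POT1, TINF2 and ACD fell, 3 of 9 members, beside 28.1% passing and 7.66% called. With 8 or 9 members a comparison these counts are given as a description. The median log2 fold change of all genes tested was 0.077 in primary, 0.11 in immortalized and 0.01 in transformed cells, and -0.13 in those labelled metastasizing. The members' medians were 0.106, 0.43, -0.305 and -0.01 in that order.

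**Figure D3:**
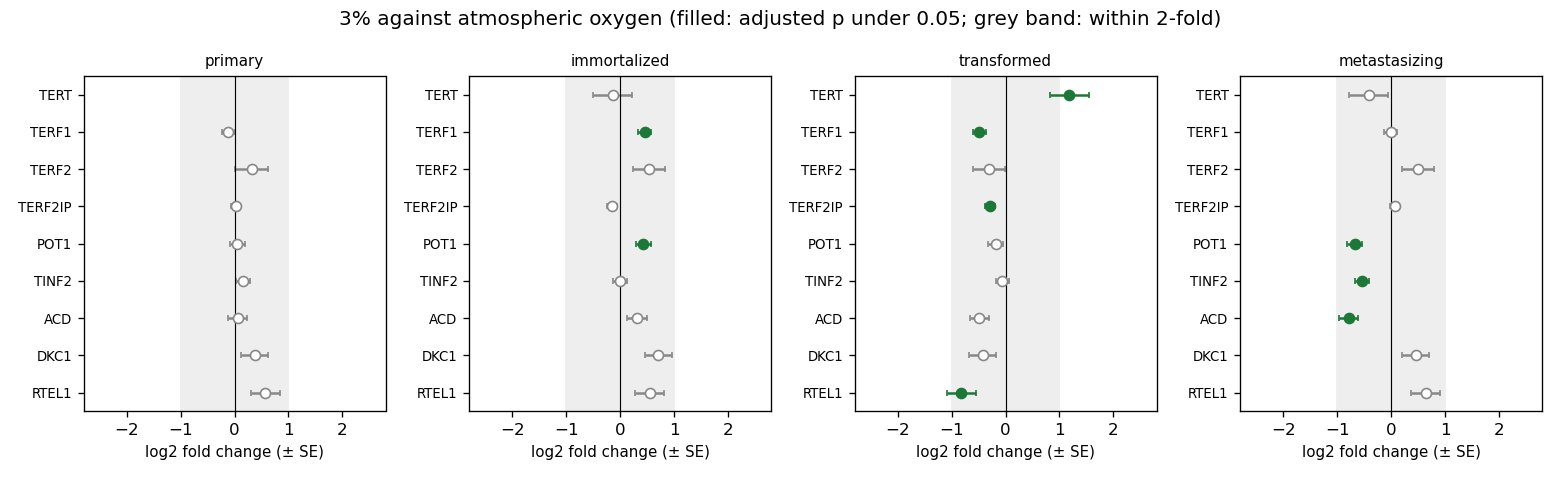
Log2 fold change of each member (± SE, x axis) at 3% against atmospheric oxygen in the 4 stages (panels); filled points have an adjusted p under 0.05 and the grey band marks changes within 2-fold. TERT at 1.18 in transformed cells is the only filled point outside the band, and TERF1 is filled at 0.46 in immortalized and at -0.49 in transformed cells.

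Whether stages differed in their hypoxic response was tested as the difference of log2 fold changes between neighbouring stages. Between primary and immortalized cells 0 of 9 members passed (1 at an unadjusted p under 0.05), where 7.68% of all genes passed and 1.86% were called. Between immortalized and transformed cells 5 of 9 passed and 0 were called, where 32.0% of all genes passed and 12.0% were called. All 5 were lower in the response of transformed cells: RTEL1 by -1.37 ± 0.38 (adjusted p = 0.0181), DKC1 by -1.13 ± 0.35 (0.0313), TERF1 by -0.95 ± 0.17 (0.00197), ACD by -0.80 ± 0.25 (0.0321) and POT1 by -0.61 ± 0.19 (0.0328). TERF1 alone of the 5 passed with each of the 8 libraries left out; RTEL1 and ACD passed in 4 of 8 such fits, and DKC1 and POT1 in 1 of 8. Between transformed cells and those labelled metastasizing TERT was lower by -1.60 ± 0.52 (adjusted p = 0.0427, passing in 1 of 8 fits with a library left out) and RTEL1 higher by 1.46 ± 0.38 (adjusted p = 0.0168, passing in 5 of 8), 2 of 9 members and 0 called, where 25.3% of all genes passed and 8.47% were called. The responses compared share the libraries of the stage in between.

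Of the 6 stage steps, that to SV40 Large-T at atmospheric oxygen changed the most members. From primary to immortalized cells 4 of 9 members passed at atmospheric oxygen (TERT and POT1 higher, TERF1 and ACD lower) beside 36.3% of all genes, and TERT was called beside 12.2% of all genes. At 3% oxygen 3 of 9 passed (TERT and POT1 higher, TERF2IP lower) beside 29.6%, and TERT was called beside 9.23%. TERT is introduced at this step, so its place in these counts was set by the design. From immortalized to transformed cells at atmospheric oxygen 6 of 9 passed beside 55.9% of all genes, and 5 were called beside 24.3%. Of these, TERF2, ACD, DKC1 and RTEL1 were called higher, beside 13.2% of all genes called higher, and TERF1 rose with them, beside 34.7% of all genes that rose, while TERT was called lower. The members' median log2 fold change was 0.80 against 0.22 for all genes tested. At 3% oxygen 3 of 9 passed (ACD and RTEL1 higher, POT1 lower) beside 45.1%, 0 were called beside 16.3%, and the medians were 0.10 for the members and 0.10 for all genes. From transformed cells to those labelled metastasizing 3 of 9 passed at atmospheric oxygen (POT1 higher, TERF2IP and RTEL1 lower) beside 19.5%, and RTEL1 was called beside 4.12%. At 3% oxygen 2 of 9 passed (DKC1 higher, TINF2 lower) beside 27.6%, and 0 were called beside 5.92%. At the step to transformed cells at atmospheric oxygen 4 of 5 proliferation markers rose too, with a median of 0.94, and 4 of 8 fibroblast markers were called lower, beside 11.2% of all genes. At 3% oxygen 4 of 5 proliferation markers also rose (median 0.74), beside 25.9% of all genes. There 5 of 8 fibroblast markers were called lower, beside 915 of 12396 genes tested. The part of these markers in the members' values was not tested.

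**Figure D4:**
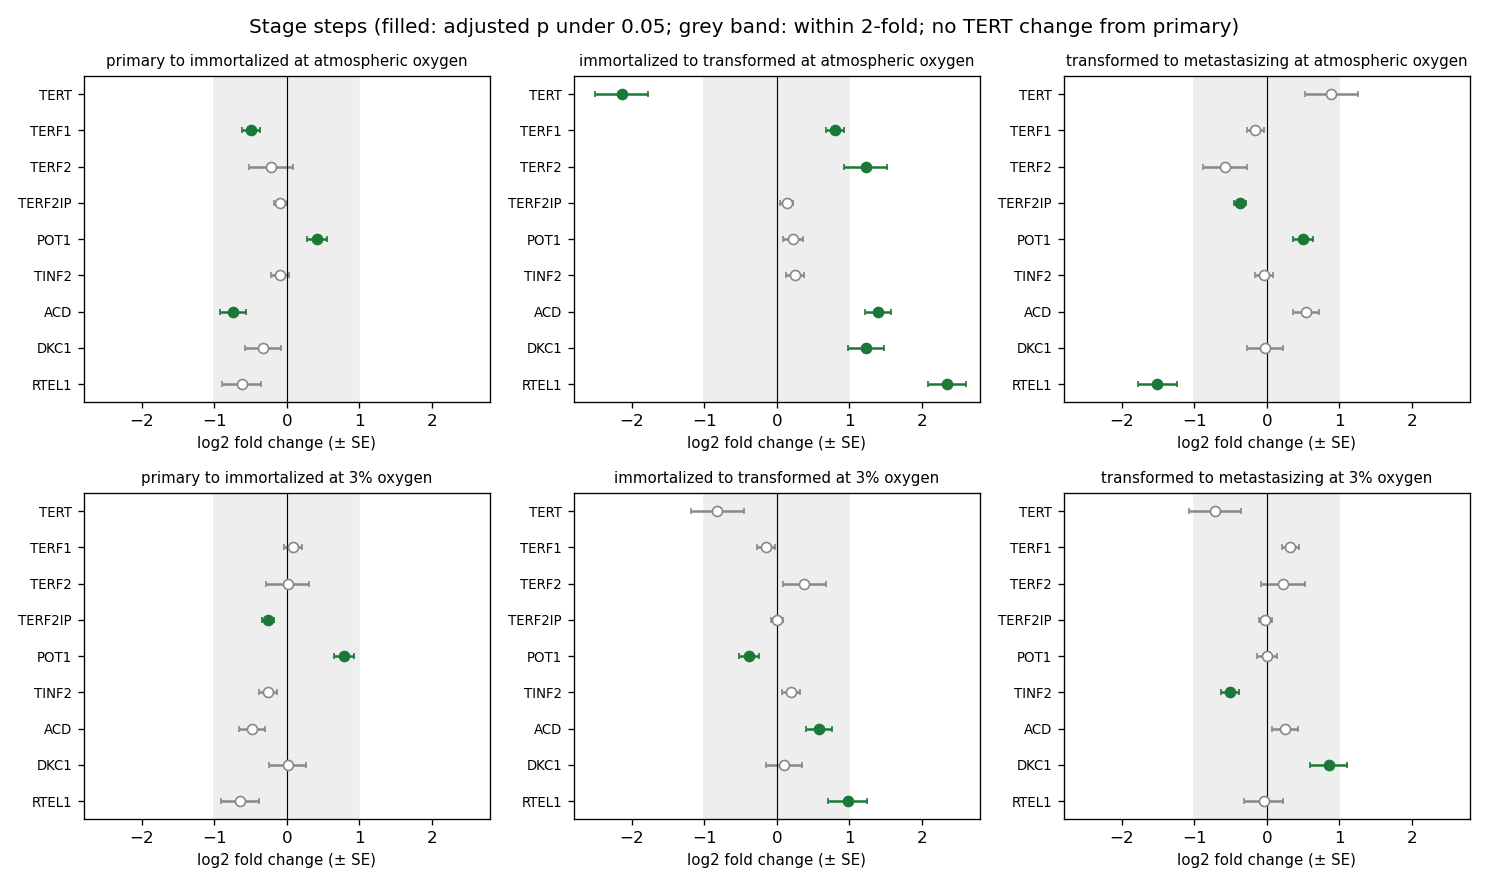
Log2 fold change of each member (± SE, x axis) at the 3 stage steps (columns) at atmospheric oxygen (upper row) and 3% oxygen (lower row). TERT is not drawn at the step from primary to immortalized cells, where it is introduced and was called higher. Filled points have an adjusted p under 0.05 and the grey band marks changes within 2-fold. At the step to transformed cells at atmospheric oxygen RTEL1 (2.35), ACD (1.39), DKC1 (1.23) and TERF2 (1.22) lie beyond the band on the higher side and TERT (-2.14) on the lower side, and at 3% oxygen no filled point leaves the band.

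TERF2, ACD, DKC1 and RTEL1 were called higher at the step to transformed cells at atmospheric oxygen, and the bases before the starts of the latter 3, those of these genes with an entry in the promoter table used here, are shown from RefSeq on GRCh38.p14, 250 bases up to the start, 5′ to 3′ on the gene's strand. Capitals mark a GC box, the letters GGGCGG on either strand, a motif that SP1 and its relatives bind.
ACD, chr16:67660261-67660510, minus strand: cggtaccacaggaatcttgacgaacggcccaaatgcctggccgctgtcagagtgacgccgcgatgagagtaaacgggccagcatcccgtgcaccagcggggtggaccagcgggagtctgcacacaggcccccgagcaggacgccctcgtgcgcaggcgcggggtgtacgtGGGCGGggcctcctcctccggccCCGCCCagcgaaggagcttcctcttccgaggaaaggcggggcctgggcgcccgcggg
DKC1, chrX:154762614-154762863, plus strand: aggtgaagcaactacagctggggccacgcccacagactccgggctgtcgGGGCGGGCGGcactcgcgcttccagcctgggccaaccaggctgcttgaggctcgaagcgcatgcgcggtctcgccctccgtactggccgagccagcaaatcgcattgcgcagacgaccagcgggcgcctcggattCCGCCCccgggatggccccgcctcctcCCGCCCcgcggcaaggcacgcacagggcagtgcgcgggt
RTEL1, chr20:63658062-63658311, plus strand: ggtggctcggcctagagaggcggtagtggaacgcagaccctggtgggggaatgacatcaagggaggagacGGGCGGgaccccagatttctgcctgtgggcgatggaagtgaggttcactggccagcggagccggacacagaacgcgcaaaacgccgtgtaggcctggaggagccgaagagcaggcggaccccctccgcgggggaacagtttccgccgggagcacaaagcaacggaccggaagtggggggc
The windows hold 2, 4 and 1 GC boxes and 70.8%, 72.0% and 66.0% G and C. A GC box lay in 42.6% of the 35116 promoter windows of this length, and all 7 members with an entry hold 1 or more in at least 1 of their entries, so the motif does not separate the 3 genes. RTEL1 has a further entry (chr20:63657560-63657809) with none. The E2F letters TTTCCCGC, TTTGGCGC, TTTCGCGC and TTTGCCGC were searched on both strands and lay in 2.79% of all windows and in none of the members', and the E-box CACGTG lay in 6.34% of all windows and, of the members, in that of TERT. No match says only that these letters are not in these 250 bases. A pair of the 4 GC boxes of DKC1 overlap and are marked as 1 stretch.

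Genes that work with the members were counted from lists. Of 10 tested genes of H/ACA particles and telomerase assembly, 8 rose and 0 fell from immortalized to transformed cells at atmospheric oxygen, with a median log2 fold change of 0.82, and 4 were called higher. Over all genes 34.7% rose, 21.2% fell and 13.2% were called higher there, with a median of 0.22. WRAP53, which brings telomerase RNA to Cajal bodies, rose from 10.1 and 12.9 TPM to 39.3 and 43.3 TPM (1.81 ± 0.20, adjusted p = 2.1e-05). In transformed cells 8 of these 10 genes fell with hypoxia and 0 rose (median -0.67), beside 15.4% of all genes that fell (median 0.01). The hypoxic response was lower in transformed than in immortalized cells for 6 of 10, beside 18.3% of all genes, and 4 of them were called, beside 5.84%, among which were WRAP53 (-1.45 ± 0.28, adjusted p = 0.00306) and GAR1, a core protein of H/ACA particles (-1.34 ± 0.28, adjusted p = 0.00409). The same 10 genes had medians of -0.49 from primary to immortalized cells at atmospheric oxygen, where 6 fell beside 20.2% of all genes, and of 0.22 from immortalized to transformed cells at 3% oxygen, where 2 rose and 3 fell beside 25.9% and 19.2% of all genes. TEP1, a telomerase-associated protein, was called lower at the last of these (-1.40 ± 0.17, adjusted p = 6.6e-05), from 11.5 and 9.94 TPM to 3.90 and 3.60 TPM.

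Of the 7 genes of the CST complex and C-strand fill-in, which resynthesizes the strand opposite the overhang, 3 rose and 1 fell from immortalized to transformed cells at atmospheric oxygen (median 1.05), and the 3 that rose, POLA1, POLA2 and PRIM1, are subunits of DNA polymerase alpha-primase. These counts stand beside the 34.7% of all genes that rose and the 21.2% that fell. At 3% oxygen 0 rose and 1 fell, beside 25.9% and 19.2% of all genes: STN1, a CST subunit, was called lower (-1.55 ± 0.25, adjusted p = 0.000494), from 32.5 and 30.2 TPM to 10.7 and 10.1 TPM. Of 11 shelterin partners and processing factors, 8 rose and 1 fell at the step to transformed cells at atmospheric oxygen (median 0.59), and 1 rose and 2 fell at 3% oxygen (median 0.08), against the same shares of all genes and medians of 0.22 and 0.10. BLM, a helicase of the RecQ family, was called higher with hypoxia in primary cells (1.30 ± 0.16, adjusted p = 0.000301), from 8.66 and 6.42 TPM to 19.2 and 19.0 TPM, and in immortalized cells (1.16 ± 0.16, adjusted p = 0.000585), from 3.54 and 3.49 TPM to 8.54 and 8.40 TPM. It was called lower from primary to immortalized cells at 3% oxygen (-1.13 ± 0.16, adjusted p = 0.000385).

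Regulators of telomere length and factors known at the TERT promoter were counted in the same way. Of 8 length regulators 2 rose and 0 fell at the step to transformed cells at atmospheric oxygen, where 34.7% of all genes rose and 21.2% fell, and 5 rose and 1 fell at 3% oxygen, beside 25.9% and 19.2%. HMBOX1, which binds telomeric repeats, was called higher with hypoxia in transformed cells (1.38 ± 0.25, adjusted p = 0.00188), from 11.6 and 8.50 TPM to 31.1 and 23.0 TPM, and called lower from there to the libraries labelled metastasizing at 3% oxygen (-1.14 ± 0.25, adjusted p = 0.00719). Of 8 promoter factors 2 rose and 1 fell at the step to transformed cells at atmospheric oxygen, beside the same 34.7% and 21.2% of all genes. All 3 were called, 2 higher and 1 lower, beside 13.2% of all genes called higher and 11.2% called lower. MYC (1.67 ± 0.16, adjusted p = 7.42e-06) and E2F1 were called higher, and ETS2 was called lower (-1.92 ± 0.15, adjusted p = 1.74e-06). ETS2 had been called higher from primary to immortalized cells at atmospheric oxygen (1.97 ± 0.15, adjusted p = 3.91e-06), from 28.9 and 26.8 TPM to 125 and 97.2 TPM. At 3% oxygen E2F1 was called higher at the step to transformed cells (1.94 ± 0.15, adjusted p = 3.08e-06). These factors act on the chromosomal TERT promoter, and the full-length TERT transcript was listed at 0 in the primary libraries, the stage without the introduced gene.

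**Figure D5:**
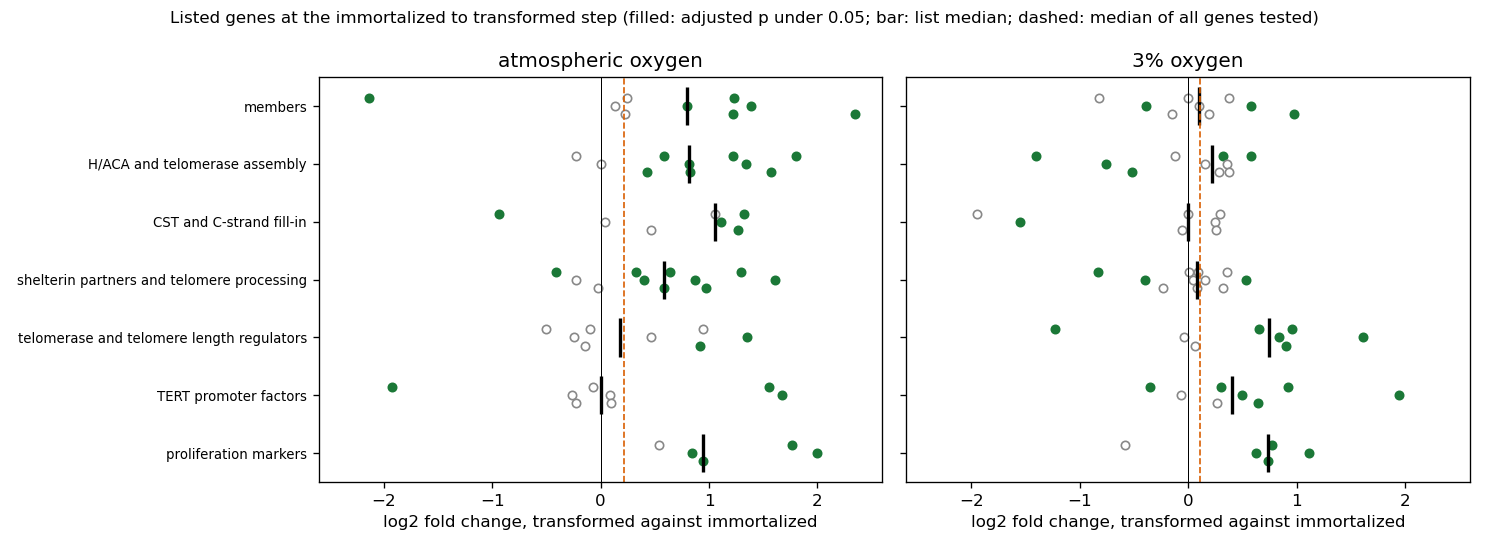
Log2 fold change of the members and of the listed genes (points, x axis) at the step from immortalized to transformed cells, by list (y axis), at atmospheric oxygen (left) and 3% oxygen (right); filled points have an adjusted p under 0.05, bars are list medians and the dashed line is the median of all genes tested. The assembly list has a median of 0.82 at atmospheric oxygen and 0.22 at 3% oxygen, against 0.22 and 0.10 for all genes.

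The genes whose levels followed TERT most closely were found by Pearson's r of log2(TPM + 0.5) over the 16 libraries among 13141 genes, and they were CPE (r = 0.975), MT1F (0.963), DENND2A (0.958), VWDE (0.951) and VPS26A (0.948). Their Spearman coefficients were 0.883, 0.786, 0.811, 0.927 and 0.690, and by that measure other genes led, KCNAB2 first at 0.961. The points share libraries and groups, and 4 of the 16 are primary libraries at or near 0 for TERT, so these values are descriptions with no test. Of the members POT1 was nearest to TERT (r = 0.728, rank 315) and TERF2IP farthest (r = -0.615).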

How the data were processed

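RNA of 16 libraries (4 stages, 2 oxygen levels, 2 plates each) was sequenced from a stranded mRNA preparation. The authors quantified transcripts with kallisto 0.42.1 on GRCh37, and the deposited values are TPM for each of 180253 transcripts; 1 stray header line was skipped. Of these, 151453 were matched to a gene of GENCODE 44 lifted to GRCh37 by identifier without version (they hold 88.2% to 90.1% of a library's TPM), and 28800, which may include older transcripts of the members, were not. TPM were summed by gene, and library depth and its precision are unknown.

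The study tested estimated counts with edgeR, which TPM do not allow. log2(TPM + 0.5) was fitted in R 4.3.3 with limma 3.58.1, with a term for each of 8 groups, moderation along the mean level and 8 residual degrees of freedom; p-values were adjusted by Benjamini-Hochberg over the protein-coding genes that averaged 1 TPM or more in a group under comparison. With 2 libraries a group no exact permutation test of a single gene was made. On simulated data for hypoxia in primary cells (12082 genes), 64 of 100 genes changed by a log2 of 1.5 and 99 of 100 changed by 3 were called, with 1 false call. The simulation gave every group the means of primary cells at atmospheric oxygen and each gene an equal normal spread in all libraries. Only the chosen genes changed, so these figures need not hold where many genes change or where plates of a group differ more. Fits with a library left out assume that the lone library of its group varies like the other groups.

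The members, lists, markers and comparisons were chosen with earlier results of these data known. Named in the text are the 9 members, all TERT transcripts, RTEL1-TNFRSF6B, TERC, up to 3 called list genes a comparison by size of change (others are named beside counts, after their values were seen) and the 5 genes nearest to TERT. Sequences are from GENCODE 44 (GRCh37) and RefSeq (GRCh38.p14), where 7 members had a promoter entry. Alternatives were pseudocounts of 0.1 and 1 TPM, other filters on low values, median-ratio and quantile scaling, a replicate block, only the groups compared, no trend, array weights, all genes, and an adjusted p under 0.05 at any fold. A crossed block, leaving out both libraries labelled metastasizing at 3% oxygen, and 3 further differences of responses were added after the data were seen. Python 3.11.15, pandas 2.3.3, numpy 2.4.6 and matplotlib 3.10.9 were used for the tables and plots.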

Additional observations from a re-analysis of the deposited data

Results flagged for a closer look

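Several members responded to hypoxia differently in different stages, by a test of the difference of their log2 fold changes in limma. Between transformed and immortalized cells the differences were -0.805 for ACD, -1.13 for DKC1, -0.611 for POT1, -1.37 for RTEL1 and -0.949 for TERF1 (adjusted p = 0.0321, 0.0313, 0.0328, 0.0181 and 0.00197). Between the libraries labelled metastasizing and transformed cells they were 1.46 for RTEL1 and -1.60 for TERT (adjusted p = 0.0168 and 0.0427).

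The remaining pairs of stages were compared after the data were seen. RTEL1 differed by -1.39 between transformed and primary cells (adjusted p = 0.0184), 1 of 9 members, beside 16.3% of all genes lower and 13.1% higher. Between the libraries labelled metastasizing and primary cells ACD differed by -0.842, POT1 by -0.724 and TINF2 by -0.698 (adjusted p = 0.0355, 0.0223 and 0.0173). They were 3 of 9 members, beside 15.4% of all genes lower and 7.23% higher. Between those labelled metastasizing and immortalized cells ACD differed by -1.10, POT1 by -1.10 and TINF2 by -0.536 (adjusted p = 0.0106, 0.00287 and 0.0473). They were again 3 of 9 members, beside 16.7% of all genes lower and 7.69% higher. POT1 was the 1 member called there, where 561 of 12734 genes were called lower. The 6 of these differences that involve the last stage rest on the pair of plates that differ most from each other. No group holds more than 2 libraries, and outlying libraries were therefore not looked for.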

How the results depend on the processing

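The number of members called under the study's thresholds kept within 1.5 times its value in most settings. In most comparisons that value was 0, and from primary to immortalized cells it was the introduced TERT alone, so this agreement says little. No result that passed reversed direction in any setting. With an adjusted p under 0.05 at any fold in place of those thresholds, the counts were 2, 4 and 3 for hypoxia in immortalized, transformed and labelled metastasizing cells, 4 and 3 for primary to immortalized cells at atmospheric and 3% oxygen, 3 for immortalized to transformed cells at 3% oxygen, 3 and 2 for transformed to metastasizing cells at the 2 oxygen levels, and 5 and 2 for the differences of hypoxic response from immortalized to transformed and from transformed to metastasizing cells. With only the groups compared, 1 member, TERT, was called for hypoxia in transformed cells. In that setting 2 were called for the difference of response from immortalized to transformed cells, against 0 each. Array weights gave 2 for that difference. Median-ratio rescaling and quantile normalization gave 1 each for the difference of response from transformed to metastasizing cells, against 0. With no filter on low values the fall of RTEL1 from transformed to metastasizing cells at atmospheric oxygen was not called (0 against 1). Without both libraries labelled metastasizing at 3% oxygen, 1 member, again TERT, was called for hypoxia in transformed cells and 2 for the difference from immortalized to transformed cells. With 1 library left out, the counts were 3 to 4 for immortalized to transformed cells at atmospheric oxygen, against 5: TERF2 passed 0.01 in none of the 4 fits (adjusted p = 0.0119, 0.041, 0.0138 and 0.042 without immortalized a and b and transformed a and b) and DKC1 only without immortalized b (0.00949). They were 0 in all 4 fits for transformed to metastasizing cells at atmospheric oxygen, 0 to 1 for that step at 3% oxygen, 0 to 1 for hypoxia in the libraries labelled metastasizing, and 0 to 1 and 0 to 2 for the differences from immortalized to transformed and from transformed to metastasizing cells.

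Over single members, 37 changes passed in the reported fit, and 505 of their 630 alternative values still did. Apart from libraries left out, the settings that ended a passing change were these. Median-ratio and quantile rescaling ended the hypoxic rises of TERF1 and POT1 in immortalized cells, the fall of TERF2IP from primary to immortalized cells at 3% oxygen and the difference of response of DKC1 from immortalized to transformed cells, and the first also that of ACD. No filter on low values ended the hypoxic changes of TERT and RTEL1 in transformed cells, the rise of DKC1 to metastasizing cells at 3% oxygen, the differences of ACD and DKC1 from immortalized to transformed cells and that of TERT from transformed to metastasizing cells; a pseudocount of 0.1 TPM ended both TERT changes, and moderation without a trend the TERT difference and the fall of TERF2IP at 3% oxygen. With only the groups compared, and with array weights, the hypoxic falls of POT1, TINF2 and ACD in the libraries labelled metastasizing, the changes of TINF2 and DKC1 to those libraries at 3% oxygen and the TERT difference did not pass. Only the groups compared also ended the difference of RTEL1 from transformed to metastasizing cells, the hypoxic fall of TERF2IP in transformed cells, its fall from primary to immortalized cells at 3% oxygen, the rise of POT1 at that step at atmospheric oxygen and its fall to transformed cells at 3% oxygen. Of values that did not pass, 57 changed sign, the largest at a log2 fold change of 0.455. The replicate block moved no count of called members: it gave 5 for immortalized to transformed cells at atmospheric oxygen, as without it. The number past an adjusted p of 0.05 went from 2 to 1 for hypoxia in immortalized cells, where POT1 did not pass (0.0547), and from 3 to 2 at 3% oxygen both for primary to immortalized cells, without TERF2IP (0.0574), and for immortalized to transformed cells, without POT1 (0.0513). Same-letter libraries deviated together across 13146 genes with r of -0.15 to -0.0773 for the 4 hypoxia comparisons and -0.155 to 0.226 for the steps, so the letters were not taken to pair the plates, and the crossed replicate block gave 0 called members for hypoxia in primary cells and 5 for immortalized to transformed cells at atmospheric oxygen. TPM hold no depth, so a member's 0 cannot be given a limit.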
